A study of Homo sapiens with 3 samples.

Results

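The genes described here lay on one side of the mock-transfected HT1080 line in both of its RECK-transfected derivatives. HT1080 is an established human fibrosarcoma cell line. The Zeo line was mock-transfected, the RECK line was stably transfected with a vector for the protein RECK, and the RECK/4NQ line with that vector carrying a mutant RECK, whose asparagines at residues 86, 200, 297 and 352, 4 sites of N-linked glycosylation, are glutamines. All 3 lines grew in 10% serum with 50 µg/mL Zeocin, a DNA-damaging selection drug, so the controls had met the drug as well. Whether a line is 1 clone or a pool of transfected cells is not given in the labels. Total RNA of each line was measured on 1 Affymetrix array.

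A gene belonged to the shared set if its signals in RECK and in RECK/4NQ both differed at least 2-fold from Zeo in 1 direction and differed less than 1.5-fold from each other. Weaker signals were first raised to a floor of 12.2 (40th percentile of all values). Of 19775 genes, 593 met this rule (3.0%), and 229 of them reached the floor on every array (1.85% of 12411 such genes). Such genes are called measured. Of the 229, 89 were higher than in Zeo (0.717% of measured genes) and 140 lower (1.13%). The limit on likeness alone was met by 71.2% of measured genes. The other 364 involved a signal below the floor and are counted apart. The rule reads the same signals that are described here, and RECK and RECK/4NQ are different constructs rather than replicates, so no test is given and every value below compares single arrays.

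RECK is a membrane-anchored glycoprotein that restrains matrix metalloproteinases at the cell surface and is known as a suppressor of tumour invasion. It also inhibits ADAM10, a protease that releases Notch ligands, and it takes part in Wnt7 signalling in endothelial cells. N-linked glycans are added to asparagines in the endoplasmic reticulum and can alter how a secreted or membrane protein folds, travels and binds. Genes shared by the lines with the intact and the mutated form answer a different question from genes that separate them: what both transfected lines have in common against the mock line.

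Both ratios of a gene divide by the same Zeo signal. An error in that 1 signal enters both ratios in the same direction and by the same amount, so 1 shared control array can drive part of the pattern. How large that part is was not tested. The same holds for anything that sets the Zeo culture apart other than the absence of a RECK vector, and the design cannot tell these apart. In bulk RNA, fewer cells that express a gene and less of its RNA per cell cannot be told apart either. With the same rule and RECK as the array that stands apart, 113 measured genes were higher and 216 lower in RECK than on both other arrays. With RECK/4NQ apart, 52 were higher and 212 lower in RECK/4NQ. The totals of 329 and 264, out of the same 12411 measured genes, both exceed the 229 with Zeo apart.

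The RECK gene itself was not in the shared set. Its brightest probe set had signals of 264, 387 and 442 on the Zeo, RECK and RECK/4NQ arrays, in the order used from here on, which is 1.47-fold and 1.68-fold above Zeo. Whether this probe set lies within the transfected cDNA is unknown, so it does not check the labels. The other 4 RECK probe sets were dim and differed in order. The brightest of them in Zeo read 26.2, 2.08 and 11.3 and another 21.7, 21.0 and 19.8, both highest in Zeo, while the remaining ones read 5.64, 17.9 and 25.1 and 11.2, 18.2 and 12.4.

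The arrays differed in brightness in a way that bears on the direction of the shared set. Over the 12411 measured genes the median log2 ratio to Zeo was -0.19 in RECK and -0.11 in RECK/4NQ. The labelling control transcripts, which are added to the RNA before it is labelled, had medians of -0.31 and -0.38 over 24 probe sets. The hybridisation controls, added later, had medians of 0.31 and -0.05 over 18 probe sets, so in RECK they lay on the other side of Zeo. Higher genes made up 38.9% of the shared set as deposited, 64.8% after quantile normalisation, 57.6% after each array was centred on its median and 55.8% after scaling to a common trimmed mean. Single genes are given as deposited. Markers of mesenchymal cells were measured in 11 of 12 cases, with summed signals from 52422 to 53703 on the 3 arrays. Epithelial markers summed to between 125 and 143, with EPCAM, CLDN4, CLDN7, ESRP1 and KRT5 below the floor on all arrays and OVOL1 measured. Haematopoietic markers summed to between 456 and 504, with CD14 and SPI1 below the floor and CD3E, CD79A, CSF1R, HBB and ITGB2 measured. Endothelial markers summed to between 2152 and 2797, with CDH5, TEK and ESAM below the floor and PECAM1, TIE1 and ROBO4 measured. Neural markers summed to between 8334 and 12460, none below the floor on all arrays, with SNAP25, RBFOX3, MBP, TUBB3 and ELAVL4 measured. Muscle markers summed to between 325 and 709, with MYOD1, MYH3, CKM, TNNI1 and MYF5 below the floor and DES and TNNT1 measured. The neural and endothelial sums were lower in both transfected lines than in Zeo, but a sum follows its brightest genes. The median endothelial signal was higher in both lines, at 6.22, 18.75 and 8.52, and the median neural signal lower, at 26.0, 24.3 and 17.75. The part of these markers in the results was not tested.

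**Figure D1:**
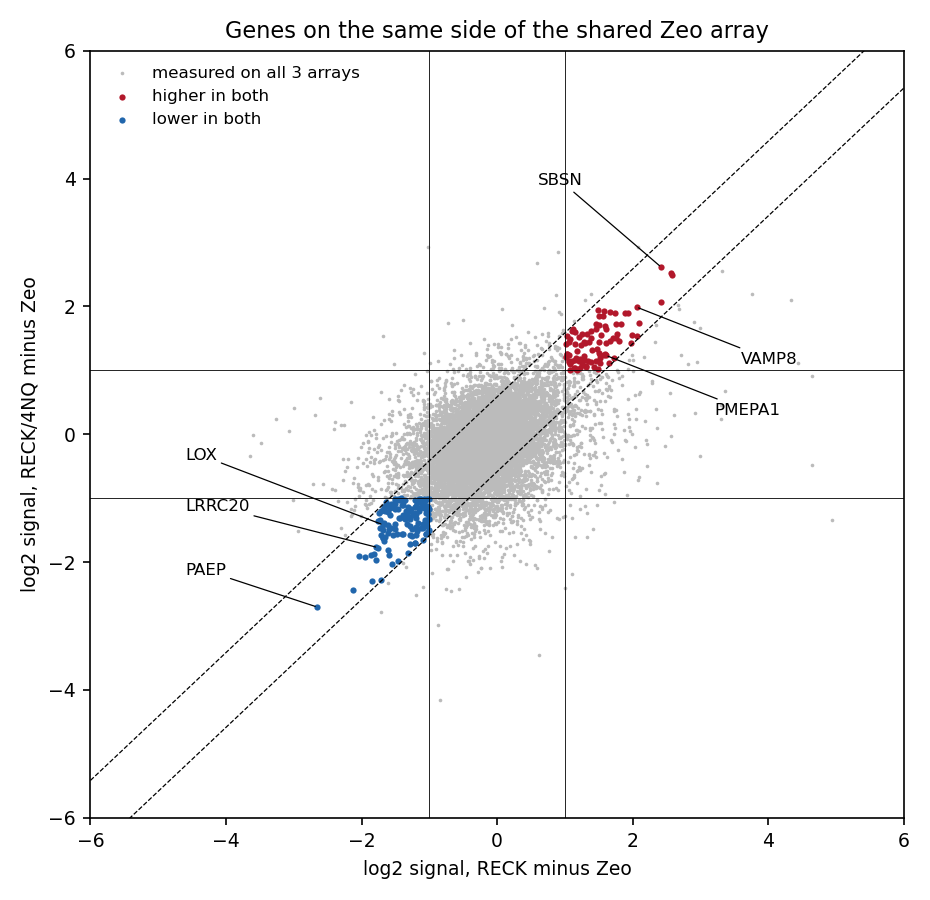
Log2 ratio to Zeo in the RECK/4NQ line (vertical axis) against that in the RECK line (horizontal axis) for the 12411 genes measured on all 3 arrays; solid lines mark 2-fold and dashed lines a 1.5-fold difference between the transfected lines. The 89 higher genes (red) and 140 lower genes (blue) fill the corners of the band by the rule itself, and both axes share the Zeo array.

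Most of the shared set was dim. The median signal of the 89 higher genes was 20.6, 57.7 and 56.7, and that of the 140 lower genes was 58.3, 21.3 and 21.9. Over all measured genes the medians were 113, 103 and 104. The dimmest of a gene's 3 signals lay within 2 times the floor for 54 higher and 88 lower genes, or 60.7% and 62.9%, against 19.9% of all measured genes. With measured genes cut into 5 equal groups by level, 1.17% of the dimmest group were higher and 3.38% lower members, and 0.201% and 0.0403% of the brightest group. The robust spread of the log2 ratio between the transfected lines (a scaled median absolute deviation) was 0.65 in the dimmest group and 0.34 in the brightest, so a 2-fold difference is a smaller multiple of the spread among dim genes.

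**Figure D2:**
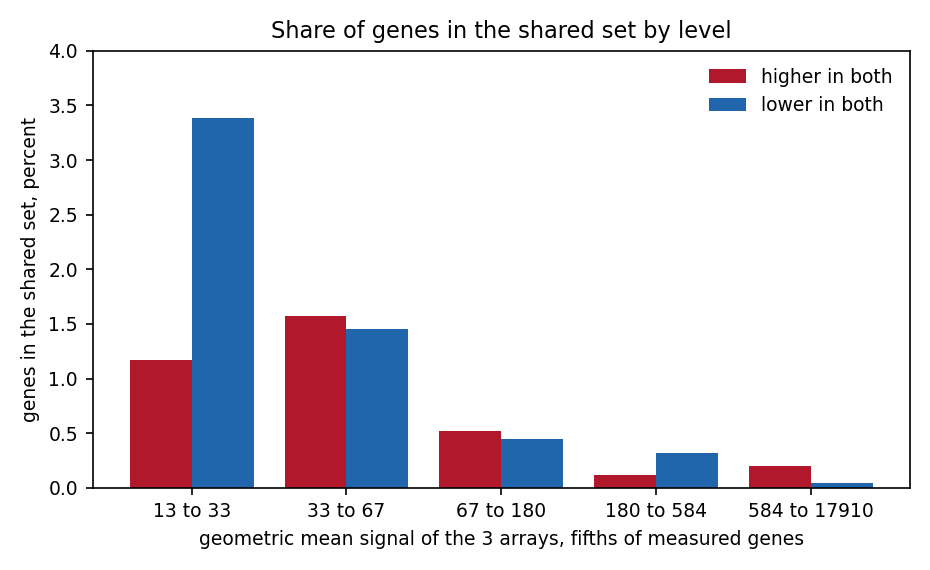
Percent of genes in the shared set (vertical axis) in 5 equal groups of the 12411 measured genes, ordered by the geometric mean signal of the 3 arrays (horizontal axis), with higher genes in red and lower genes in blue. The share of lower genes is 3.38% in the dimmest group and 0.0403% in the brightest.

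Only 18 of the 229 genes had a mean signal of at least 200, a limit chosen after the values were seen, and these are described first. Of these, 8 were higher and 10 lower than in Zeo. For each, the spread of the ratio between the transfected lines among the 1000 genes nearest in level was between 0.36 and 0.49 on the log2 scale.

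Among the higher ones were genes of secretion and of cell adhesion. SBSN, which encodes the secreted epidermal protein suprabasin, had signals of 415, 2219 and 2543, or 5.35-fold and 6.13-fold above Zeo. LPXN encodes leupaxin, a focal adhesion adaptor of the paxillin family, and had signals of 548, 1717 and 1185, 3.14-fold and 2.16-fold. It left the shared set under quantile normalisation and a common trimmed mean, where the transfected lines were farther apart. FAM20C, the Golgi kinase that phosphorylates secreted proteins, was at 367, 787 and 1123, 2.15-fold and 3.06-fold. In all 3 genes both transfected arrays lay well above Zeo. They were not in the same order, since RECK was higher for LPXN and RECK/4NQ for SBSN and FAM20C.

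PMEPA1 encodes a membrane protein that is induced by TGF-beta and dampens its SMAD signalling. Its signals were 378, 1151 and 888, or 3.05-fold and 2.35-fold above Zeo. Its other probe sets also lay at least 2-fold above Zeo in both lines, at 82.7, 249 and 218 for one and at 323, 872 and 1226 for the other. All 3 PMEPA1 probe sets thus met the 2-fold limit.

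Other bright higher genes served protein turnover, redox repair and calcium binding. FBXO32 encodes atrogin-1, a substrate receptor of a ubiquitin ligase, with signals of 369, 929 and 1093. The second brightest of its 7 probe sets read 132, 185 and 259.6, above Zeo but under 2-fold, and the others were dim. MSRB2, a mitochondrial methionine sulfoxide reductase, was at 97.4, 579 and 563, 5.95-fold and 5.77-fold higher, while its other probe sets were below the floor on every array. BACE1, the beta-secretase that cleaves amyloid precursor protein, was at 190, 545 and 433. Its further probe sets were also above Zeo in both lines, the brightest of them at 104, 138 and 121. CALB2, which encodes the calcium-binding protein calretinin, was at 132, 319 and 299, 2.43-fold and 2.27-fold.

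Among the lower bright genes was LOX, which encodes lysyl oxidase, the enzyme that crosslinks collagen and elastin outside the cell. Its signals were 453, 141 and 169.8, or 3.22-fold and 2.67-fold lower. Both of its other probe sets passed 2-fold in both lines too, at 73.5, 31.9 and 27.6 for one and 128, 28.4 and 27.6 for the other. All LOX probe sets are of a kind that can match more than 1 transcript. Among the bright genes the same holds for CEMIP, PAEP, LRRC20, BACE1 and CALB2. Without such probe sets MSRB2, LPXN, FBXO32 and MAPK11 left the shared set. CEMIP, a protein needed for the breakdown of hyaluronan, was at 760, 340 and 371, 2.23-fold and 2.05-fold lower. That put it close to the limit, and it passed 2-fold in both lines under none of the 3 other scalings.

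PAEP encodes glycodelin, a secreted lipocalin best known from the endometrium, and had signals of 568, 90.2 and 87.2. At 6.29-fold and 6.51-fold below Zeo it had the largest ratio among the lower measured genes. NOTCH1, the transmembrane receptor of the Notch pathway, was at 702, 302 and 298, 2.33-fold and 2.36-fold lower. LRRC20, a gene named for its leucine-rich repeats, was at 875, 258 and 256, 3.39-fold and 3.41-fold lower. For these 3 genes the transfected arrays were at most 1.03-fold apart.

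The remaining bright lower genes were ZMYND19, LINC00957, GLO1, MTCL1 and MAPK11. ZMYND19, a zinc finger gene, was at 1422, 543 and 594. The long noncoding RNA LINC00957 was at 588, 195 and 158, and its dimmer probe sets were lower than Zeo in both lines too. GLO1, glyoxalase I, which detoxifies methylglyoxal, was at 565, 198 and 266. MTCL1, a microtubule crosslinking factor, was at 559, 213 and 260. MAPK11, the p38-beta kinase, was at 322, 142 and 153 by its brightest probe set, but another read 11.2, 50.7 and 18.6, on the other side of Zeo. GLO1, MTCL1 and MAPK11 left the shared set when arrays were centred on their medians.

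**Figure D3:**
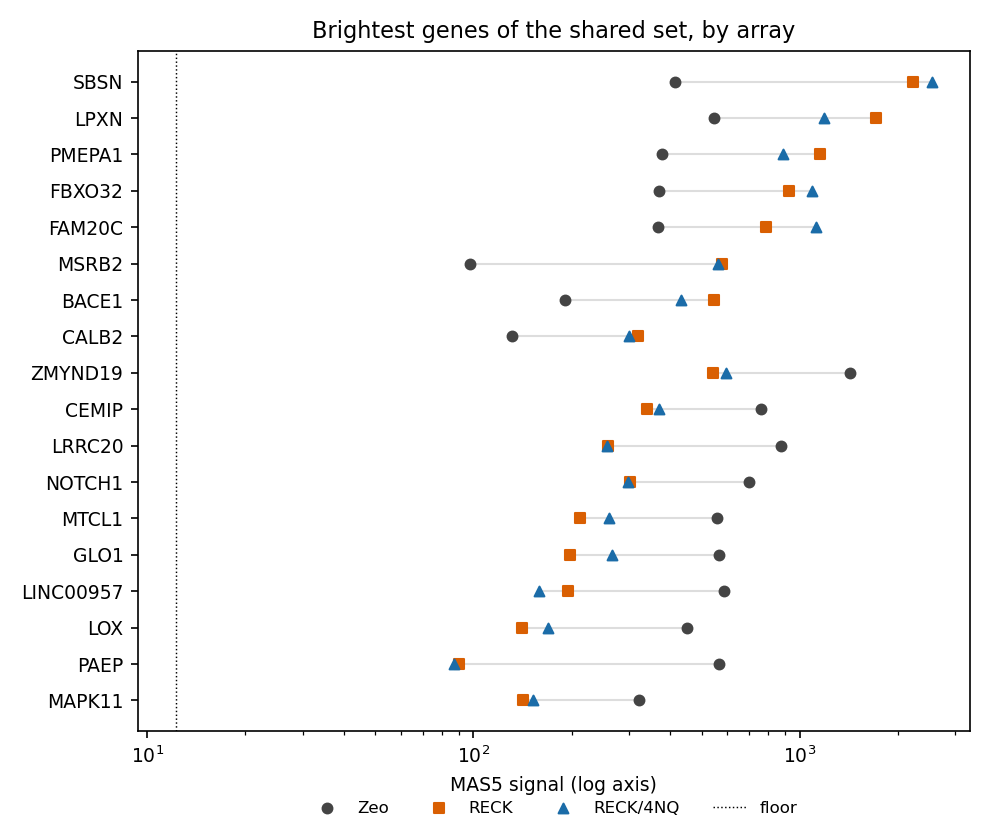
MAS5 signal (log axis) on the Zeo, RECK and RECK/4NQ arrays for the 18 genes of the shared set with a mean signal of at least 200, 1 point per array. The transfected arrays sit together on 1 side of Zeo, from 1.01-fold apart in LRRC20 to 1.45-fold in LPXN, and all points lie above the floor of 12.2.

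By size of ratio rather than level, MSRB2 and PAEP led, and most genes after them were dim in at least 1 line. Taking the smaller of a gene's 2 ratios, with a mean signal of at least 27.8 (the 60th percentile) and no measured probe set on the opposite side, the 12 leading higher genes ran from 5.77-fold for MSRB2 to 3.16-fold for DEPP1. The cadherin gene CDH11, which encodes an adhesion molecule of mesenchymal cells, read 25.7, 154 and 144. Its other probe sets did not follow as a group: one read 39.7, 29.1 and 4.09, another 10.8, 14.1 and 47.3, and the last 1.19, 13.0 and 1.27. VAMP8, a SNARE protein of endosome and granule fusion, was at 64.1, 267 and 254, 4.17-fold and 3.97-fold higher, and kept its place in the shared set under all 8 alternatives of scaling, floor and probe set choice. SBSN did so as well.

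The other leading higher genes were nearer the floor. The tetraspanin gene TSPAN18 was at 25.8, 111 and 86.2, with another probe set at 18.1, 52.5 and 21.7, under 2-fold in RECK/4NQ. The kinase gene WNK2 was at 26.1, 87.8 and 86.6 by its brightest probe set, but a further one read 37.1, 10.9 and 24.6. RNF141, a RING finger gene, was at 23.4, 78.4 and 87.3, with another probe set at 18.1, 1.28 and 0.900. The testis gene NUTM1 was at 15.9, 60.5 and 59.4. Another NUTM1 probe set read 12.4, 30.8 and 10.5, above Zeo in RECK only. DEPP1, a gene known as a FOXO target, was at 15.0, 47.5 and 56.4. A second DEPP1 probe set read 47.5, 28.2 and 9.50, the reverse order. The noncoding RNAs MYLK-AS1 (13.1, 70.2 and 55.1), LINC01664 (15.5, 57.7 and 57.7) and LOC100507395 (14.1, 50.0 and 46.6) completed the group. The Zeo signals of these noncoding RNAs all lay within 2 times the floor.

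The 12 leading lower genes ran from 6.29-fold for PAEP to 3.02-fold for LINC00957. After PAEP came HVCN1, the voltage-gated proton channel, at 70.6, 16.2 and 13.0, and the defensin gene DEFB124, at 149, 38.6 and 39.5. The genes after them had varied roles. CSF3R, the receptor of granulocyte colony-stimulating factor, was at 62.8, 15.3 and 16.7, with another probe set at 3.18, 25.1 and 10.6. The ABC transporter gene ABCB5 was at 73.4, 20.3 and 19.8, and SCARF1, a scavenger receptor, at 111, 31.4 and 30.3. Another ABCB5 probe set read 2.74, 16.9 and 9.3, on the other side of Zeo. TMEM163, a zinc transporter of vesicles, was at 100.1, 27.9 and 20.5, and its other probe set read 175, 41.3 and 4.53. CLDN11, a tight junction claudin, was at 66.9, 20.4 and 13.8. CLDN11 left the shared set under a common trimmed mean. SPG11, which encodes spatacsin, was at 97.9, 30.9 and 30.9, while another of its probe sets was flat at 23.3, 23.3 and 22.8. A further SPG11 probe set read 5.32, 18.5 and 19.3, above Zeo in both lines, and another 48.9, 2.78 and 6.37, below it. ESM1, the secreted proteoglycan endocan (63.6, 20.9 and 18.2), completed the list with LRRC20 and LINC00957. All probe sets of CSF3R, SCARF1 and ESM1 can match more than 1 transcript. Without such probe sets DEFB124 and CLDN11 left the shared set. Only PAEP, DEFB124, LRRC20 and LINC00957 lay over 3 local spreads below the median of all genes in both lines. Each on its own side, 6 of the 140 lower and 23 of the 89 higher genes lay that far out. Distances are taken from medians of -0.19 and -0.11, so a 2-fold higher gene starts farther out than a 2-fold lower one. The share over all measured genes is not given, so these counts do not rank the directions.

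**Figure D4:**
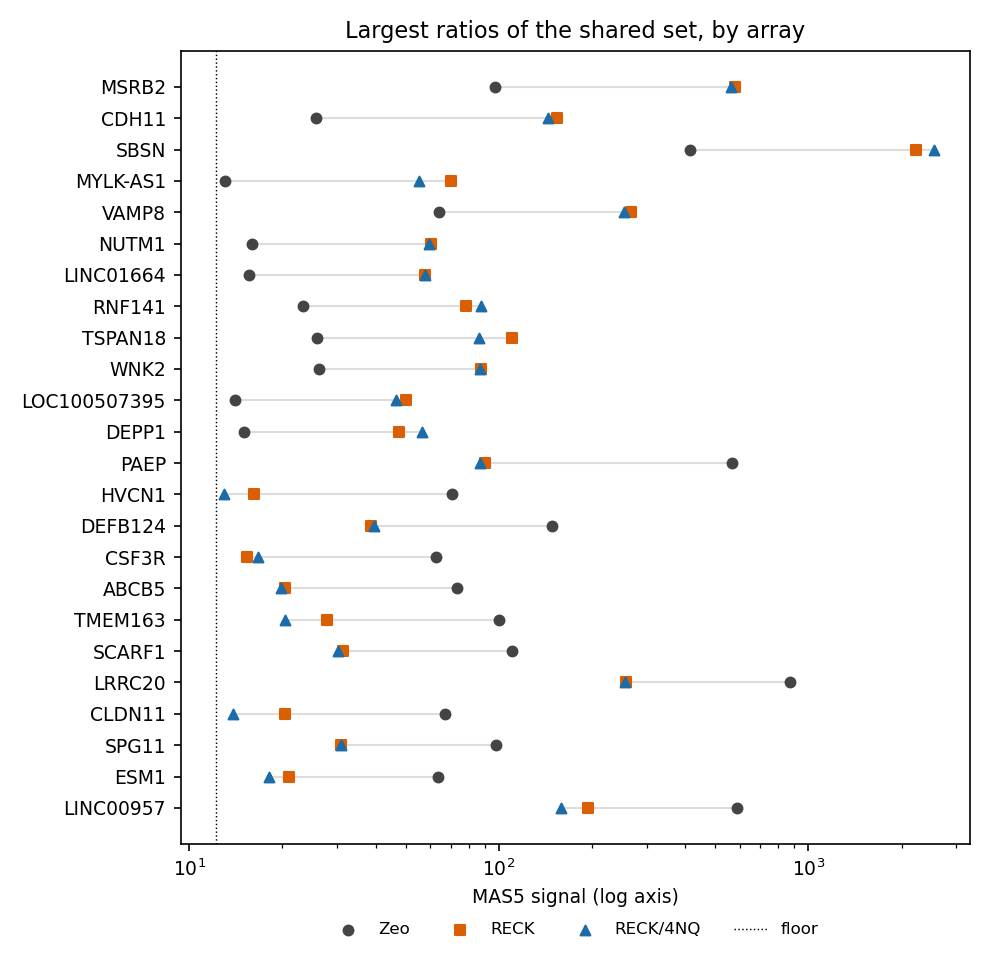
MAS5 signal (log axis) on the 3 arrays for the 12 higher and 12 lower genes with the largest smaller ratio to Zeo; the dotted line is the floor of 12.2. Most higher genes start near the floor in Zeo and most lower genes end near it in the transfected lines, while SBSN, MSRB2, LRRC20, LINC00957 and PAEP lie well above it.

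To show the regulatory sequence next to the largest ratios, promoters were read for the leading 2 genes per direction that the promoter table holds (the first window listed where a gene has several). They run from 250 bases before the start of the gene to 50 after it, 5′ to 3′ along the gene, from RefSeq on build GRCh38.p14. The windows are chr10:23095329-23095628 (+ strand) for MSRB2, chr19:35528262-35528561 (- strand) for SBSN, chr9:135561506-135561805 (+ strand) for PAEP and chr1:36483265-36483564 (- strand) for CSF3R. Capitals mark matches on either strand to 7 short motifs: the AP-1 site TGANTCA, the E-box CACGTG, the TATA box TATAAA, the CCAAT box CCAAT, the GC box GGGCGG, the ETS site CCGGAAG and the TEAD site GGAATG.
MSRB2: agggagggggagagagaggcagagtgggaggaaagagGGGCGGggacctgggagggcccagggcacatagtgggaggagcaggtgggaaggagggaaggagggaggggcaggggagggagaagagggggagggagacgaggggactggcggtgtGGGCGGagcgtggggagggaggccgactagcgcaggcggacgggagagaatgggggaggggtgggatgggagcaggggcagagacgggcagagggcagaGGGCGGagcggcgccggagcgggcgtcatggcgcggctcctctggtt
SBSN: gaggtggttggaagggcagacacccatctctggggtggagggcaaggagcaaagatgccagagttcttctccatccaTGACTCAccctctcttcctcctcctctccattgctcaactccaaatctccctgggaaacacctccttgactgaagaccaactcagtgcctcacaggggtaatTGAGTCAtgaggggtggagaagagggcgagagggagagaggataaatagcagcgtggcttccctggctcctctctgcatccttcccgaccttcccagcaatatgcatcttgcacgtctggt
PAEP: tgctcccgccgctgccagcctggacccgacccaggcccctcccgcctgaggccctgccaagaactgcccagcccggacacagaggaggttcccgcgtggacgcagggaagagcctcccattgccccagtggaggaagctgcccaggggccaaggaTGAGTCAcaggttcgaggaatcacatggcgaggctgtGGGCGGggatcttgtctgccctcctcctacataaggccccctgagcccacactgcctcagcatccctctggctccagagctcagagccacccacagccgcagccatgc
CSF3R: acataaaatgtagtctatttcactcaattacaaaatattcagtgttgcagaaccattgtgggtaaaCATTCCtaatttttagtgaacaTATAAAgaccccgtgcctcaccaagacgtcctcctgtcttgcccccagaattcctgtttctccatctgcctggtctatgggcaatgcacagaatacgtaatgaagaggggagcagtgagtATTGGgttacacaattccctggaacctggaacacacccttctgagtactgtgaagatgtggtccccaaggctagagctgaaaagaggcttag
The MSRB2 window held 3 GC boxes. That of SBSN held 2 AP-1 sites, starting at positions -173 and -71 from the start site. The PAEP window, of the gene that was lower, held 1 AP-1 site and 1 GC box, and that of CSF3R a TATA box, a CCAAT box on the other strand and a TEAD site on the other strand. No matches overlapped. A match is a run of letters, not a bound site.

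Across the shared set, 67 higher and 108 lower genes had a promoter in the table, as did 10020 of all measured genes. AP-1 letters were in 8 higher promoters (11.9%) and 5 lower ones (4.63%), against 4.69% of all. GC boxes were in 67.2% of higher and 53.7% of lower promoters, against 67.2% of all. The CCAAT box was in 34.3% and 27.8% against 36.3%, and ETS letters in 13.4% and 10.2% against 18.2%. The TEAD letters were in 16.4% and 14.8% against 11.3%, the E-box in 11.9% and 5.56% against 9.90%, and the TATA box in 5.97% and 8.33% against 6.53%. Median GC content was 64.7% in higher and 61.7% in lower promoters, against 65%. These shares are descriptions of the windows, with no test.

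Pathway lists held few of these genes. Of 38 lists, 29 had no measured member in the shared set. The lists together covered 829 genes, 686 of them measured, of which 4 were higher (0.583%) and 7 lower (1.02%) by the rule. The background over all measured genes was 0.717% and 1.13%, so the listed genes were in the shared set about as often as any gene. The higher ones were PMEPA1, CDH11, NRARP and PDK1, and the lower ones LOX, MFAP2, NOTCH1, SEMA6A, FGFR3, TOP2A and CTSF.

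RECK and its known partners, such as the proteases it restrains, their inhibitors and the Wnt7 ligands, had 14 of 16 genes measured and none in the shared set. At 2-fold, 2 were higher and 2 lower in RECK, and none was higher and 1 lower in RECK/4NQ. The background at 2-fold was 3.17% higher and 5.95% lower in RECK and 2.21% and 6.05% in RECK/4NQ. The median log2 ratio of this list was -0.27 in RECK and -0.02 in RECK/4NQ, against -0.19 and -0.12 over all 15012 genes with a mean signal at the floor or above. Of 15 measured metalloproteinases outside that list none was in the measured shared set. MMP17, a membrane-anchored metalloproteinase, was at 76.0, 5.93 and 14.4, which is at least 6.21-fold lower in RECK and, with both signals above the floor, 5.26-fold lower in RECK/4NQ. SERPINF1, the secreted serpin PEDF, was at 92.5, 7.51 and 17.5. Neither gene counts as measured, since RECK was below the floor.

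Matrix glycoproteins and crosslinking enzymes had 2 lower members of 27 measured. Besides LOX this was MFAP2, a microfibril protein of elastic fibres, at 60.9, 20.6 and 21.97, or 2.95-fold and 2.77-fold lower. The fibrillin gene FBN2 lay just outside, at 143, 72.1 and 70.7, 1.98-fold and 2.02-fold lower. The other measured LOX-family enzymes, named after their values were seen, did not reach 2-fold, with LOXL2 at 5028, 6322 and 5921, LOXL1 at 1362, 1314 and 1535, LOXL3 at 1586, 1721 and 1586 and LOXL4 at 42.8, 49.0 and 51.0. The median log2 ratio of this list was -0.03 in RECK and -0.43 in RECK/4NQ. None of 13 measured collagen chains and none of 13 measured integrin chains was in the shared set.

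The Notch list had 1 higher and 1 lower member of 15 measured. NOTCH1 was described above. NRARP, a Notch target that feeds back on the pathway, was at 12.3, 35.3 and 26.6, so its Zeo signal was just above the floor. HEY2, a transcriptional repressor and Notch target, was below the floor in Zeo at 7.80, and at 45.5 and 44.9, at least 3.72-fold and 3.67-fold higher. HES1, a classical Notch target named here after its values were seen, was at 112, 131 and 132, within 1.18-fold of Zeo. The median log2 ratio of the list was -0.41 in RECK and -0.04 in RECK/4NQ.

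The other list genes came from unrelated functions. PDK1, a kinase that restrains pyruvate entry into mitochondria, was at 13.9, 39.3 and 49.7 by its brightest probe set by mean log2 signal, while a further one read 28.7, 13.2 and 23.3. TOP2A, the topoisomerase of dividing cells, was at 164, 76.9 and 75.6, 2.13-fold and 2.17-fold lower. A dimmer probe set read 18.4, 9.46 and 13.3, and another 1.65, 19.0 and 22.9, on the other side of Zeo. TOP2A was the only one of 39 measured cell cycle genes in the shared set. It lost its place under each of the 3 other scalings. FGFR3, a fibroblast growth factor receptor, was at 115, 49.6 and 35.6, with a second probe set at 17.5, 18.9 and 37.8. The semaphorin gene SEMA6A was at 89.9, 28.7 and 39.1, and the lysosomal protease gene CTSF at 105, 43.5 and 42.3. Cholesterol synthesis had no member, and its medians of -0.50 in RECK and -0.34 in RECK/4NQ came with INSIG1, the sterol sensor that retains SREBP, at 370, 234 and 238. The N-glycan assembly genes had no member among 34 measured, with medians of -0.29 and -0.18.

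Of the 364 genes outside the measured class, 67 were below the floor in Zeo and at least 2 times the floor in both transfected lines. The brightest was TRPM4, a calcium-activated cation channel, at 3.33, 69.5 and 82.2, at least 5.68-fold and 6.72-fold higher. After it came MARCHF6-DT at 10.8, 66.3 and 80.2, SPAAR, which encodes a small regulator of mTORC1, at 11.1, 66.6 and 51.9, PRR35 at 10.1, 51.6 and 51.8, and the dopamine receptor gene DRD5 at 5.64, 57.6 and 48.5. In a further 200 genes both transfected lines were below the floor, so that how alike they are was not measured. These were led by FAM95A with a Zeo signal of 85.1 (2.10 and 8.06 in the transfected lines), the homeobox gene MNX1 at 75.8 (1.57 and 5.59), TP53I11 at 66.4 (7.38 and 10.1), the ferritin receptor gene SCARA5 at 66.2 (11.1 and 6.95) and TENT5B at 64.8 (1.71 and 0.955). Another TP53I11 probe set read 2.10, 15.0 and 17.7, on the other side of Zeo. In the last 97 genes 1 of the transfected lines was below the floor.

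Other probe sets of the same genes gave a second reading on the same arrays. For the higher set, 25 genes had 42 other measured probe sets, of which 18 (42.9%) lay above Zeo in both lines, 18 (42.9%) below Zeo in both and 6 on different sides. Over all measured genes above Zeo in both lines these shares were 38.9% and 30.7%. For the lower set, 23 genes had 31 other probe sets, 16 (51.6%) below Zeo in both and 7 (22.6%) above, against 56.2% and 15.3% over all genes below Zeo in both. The probe sets that also passed 2-fold in both lines numbered 3 for each direction, 7.14% and 9.68%, against 2.59% and 1.43%. They belonged to PMEPA1 (2 of them) and SRCAP, a chromatin remodelling gene, for the higher set, and to LOX (2) and BCAP29, a protein of the endoplasmic reticulum, for the lower set. For SRCAP, however, 2 of its 3 other measured probe sets lay below Zeo in both lines.

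Gene order in the RefSeq table was used to ask whether genes of the shared set sat next to each other. Another higher gene lay among the 5 measured genes on each side for 6 of the 89 higher ones (6.74%, against 6.88% of all 12401 placed genes), such as ATAD2 with FBXO32. Another lower gene lay there for 8 of the 140 lower ones (5.71%, against 10.9%), such as LOX with SEMA6A and YES1 with NDC80. Neither share was above that of all genes. The neighbours of 6 genes lay at least 0.3 in log2 ratio the same way in both lines, relative to all genes: CDH11 and RRN3P3 with higher neighbours, and NOTCH1, YES1, MC5R and NUP54 with lower ones. These are 2.25% of the higher and 2.86% of the lower genes, against 1.51% and 1.75% of all placed genes. The neighbours of NOTCH1 had medians of -0.86 in RECK and -0.68 in RECK/4NQ.

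PAEP, NOTCH1 and ZMYND19 belong to 1 stretch of the genome. From PAEP to ZMYND19 the table holds 59 measured genes, whose median log2 ratio to Zeo was -0.63 in RECK and -0.53 in RECK/4NQ. Of these, 52 were below Zeo in RECK (88.1%, against 66.3% of all measured genes) and 51 in RECK/4NQ (86.4%, against 59.7%). The stretch was chosen after its values were seen and is described without a test. C9orf163 and NRARP lie in it too and were in the higher set, both from dim signals. Thus 3 of the 10 bright lower genes came from a stretch in which most genes read lower than in Zeo in both lines. Of these 3 only NOTCH1 had nearest neighbours that met the 0.3 limit above. In RECK and RECK/4NQ the neighbour medians were -0.38 and -0.31 for PAEP and -0.44 and -0.41 for ZMYND19.

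Genes at the limits of the rule, among those with a mean signal of at least 27.8, show how sharp it was. Just inside 2-fold were GOPC (2.03-fold in its smaller ratio), SALL1 (2.04-fold) and ZBTB10 (2.05-fold) among higher genes, and just outside were CD99L2 (1.99-fold), ITGB2-AS1 (1.99-fold) and MIR3945HG (1.98-fold). Among lower genes CYBB was at 44.6, 22.3 and 17.8, just inside, and CDK9 at 414, 208 and 195, just outside. FLJ12825, with the transfected lines 1.49-fold apart, was the last gene inside the limit on likeness, and FAM81A, at 1.51-fold, the first outside it. Within the shared set RECK was farther from Zeo than RECK/4NQ in 48 of 89 higher and 72 of 140 lower genes.

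**Figure D5:**
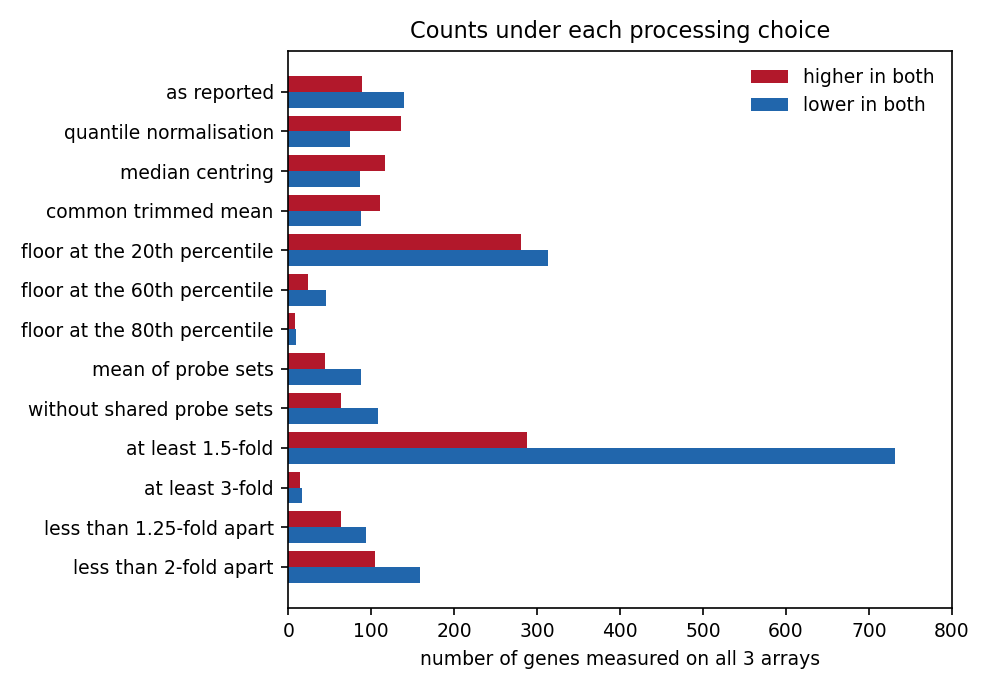
Number of measured genes in the shared set (horizontal axis) as reported and under each of 12 other processing choices, with higher genes in red and lower genes in blue. The counts run from 8 higher and 9 lower with the floor at the 80th percentile to 288 higher and 731 lower with a 1.5-fold limit, and the direction with more genes differs between scalings.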

How the data were processed

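RNA of 3 HT1080 lines was measured on 1 array each. The authors deposited MAS5 intensity values, linear and unlogged, for each probe set. MAS5 comes from the submitters' processing notes, with version and target level not given in the sources used here. It subtracts mismatch signal, which leaves weak values imprecise. The number of arrays limits the precision, and no SD can be given. Of 54675 probe sets, 62 were controls, the platform's annotation gave 41091 exactly 1 gene symbol, 1801 several and 11721 none. By gene ID 41037 matched RefSeq (GRCh38.p14). The probe set with the highest mean log2 signal stood for a gene. Calculations used the signals as deposited, in Python 3.11.15 with numpy 2.4.6 and pandas 2.3.3.

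Named genes were the 12 per direction with the largest smaller ratio, the 5 brightest per floor class, and members of the described lists. The 18 genes with a mean signal of at least 200 were added after the values were seen. The set and the 38 gene lists were chosen with earlier results of these data known. The rule was tried on simulated arrays with changes planted only in brighter genes. Most of the shared set is dim, so that trial does not show how the rule performs for it. No fit or test across genes was made, since each line has 1 array.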

Additional observations from a re-analysis of the deposited data

Results flagged for a closer look

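Probe sets that the platform's annotation does not pair with exactly 1 gene took no part in the comparisons above. Of 13522 such probe sets, 4331 reached the floor on every array, and 43 of these were higher than the mock line in both transfected lines by the same rule (0.993%, against 0.717% of measured genes). Another 53 were lower (1.22%, against 1.13%). They are listed because they lie above the control in data not used. The shares are near those of the named genes.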

How the results depend on the processing

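As reported, 89 genes were higher and 140 lower, with 38.9% higher. The genes share 1 Zeo array and are not independent draws, so no interval is given for this share. Quantile normalisation gave 136, 74 and 64.8%. Median centring gave 86 lower and 57.6%, and a common trimmed mean 88 and 55.8%. Of the 229 genes, 147, 160 and 154 kept their place under these 3 scalings. The floor at the 20th percentile gave 280, 313 and 47.2%, at the 60th percentile 24 and 45, and at the 80th percentile 8, 9 and 47.1%. By construction a higher floor measures fewer genes. Averaging probe sets gave 44 and 88, and 113 of the 229 stayed. A limit of 1.5-fold gave 288, 731 and 28.3%, and one of 3-fold 14 and 17. Without shared probe sets (64 and 108) and with the transfected lines held to a stricter likeness (64 and 94) or to 2-fold (104 and 159), counts were within 1.5 times those reported. Among the named and bright genes, some log2 ratios changed sign. Without shared probe sets this held in RECK and in RECK/4NQ for CDH11 (-0.45 and -1.70), MAPK11 (2.05 and 0.61) and the RECK gene (-0.047 and -0.13). For CLDN11 it held in RECK only (0.085). When probe sets were averaged, the sign changed for WNK2 (-0.041 in RECK), DEPP1 (-0.024 in RECK/4NQ) and MAPK11 (0.29 in RECK). By construction both settings read a gene from other or further probe sets, and why probe sets of 1 gene differ was not tested. No paired analysis was possible because each line has 1 array and the labels give no replicate numbers. Signals near the floor limit most of the set.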
